A study of Homo sapiens with 18 samples.

Results

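The 31 genes described here encode subunits of the 26S proteasome, 13 of its 20S core particle and 18 of its 19S regulatory cap. They were taken by name, as the rows of a table of 57736 Ensembl genes whose identifiers carry the symbols of 32 core and cap subunits. The remaining symbol, the core subunit PSMB3, is not analysed here. Each of the 31 genes was well counted, with between 386 and 12627 reads in every library, so that each of them passed the filter on low counts.

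The proteasome is the protease that degrades proteins tagged with ubiquitin in the cytosol and nucleus. Its core is a stack of rings of alpha subunits (PSMA genes), which gate the entry, and of beta subunits (PSMB genes), of which PSMB5, PSMB6 and PSMB7 carry the catalytic sites. The cap holds a ring of ATPases (PSMC genes) that unfold the substrate, scaffold and lid subunits (PSMD genes), the ubiquitin receptors PSMD4 and ADRM1, and PSMD14, the deubiquitinase that removes the ubiquitin chain. Proteins rejected by the endoplasmic reticulum (ER) are drawn back into the cytosol and degraded there, and when proteasome activity falls short the transcription factor NRF1, encoded by NFE2L1, is known to raise the subunit genes together.

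mRNA was measured in A1847, a cell line of high-grade serous ovarian cancer, in 18 libraries made from 3 genotypes with 2 treatments and 3 replicates of each. The genotypes are control cells labelled wild type, cells labelled CARM1 knockout, made with a lentiviral CRISPR guide against this arginine methyltransferase, and cells with a short hairpin RNA against XBP1, a transcription factor of the ER stress response. Each was given vehicle or tunicamycin, an inhibitor of N-glycosylation that fills the ER with unfolded proteins, at 5 µg/ml for 8 h. Whether the knockout line is 1 clone or a pool is not stated. The labels do not say whether replicates are separate cultures, while the study describes its experiments in general as independent repeats, and the p-values measure the spread between these libraries, which may be technical.

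CARM1 mRNA stood at 160 to 165 CPM (read counts scaled to a common library size) in the 3 control libraries with vehicle and at 71.6 to 77.7 CPM in the 3 libraries labelled CARM1 knockout, so that the transcript was lower and still present. HSPA5, the ER chaperone that tunicamycin is known to induce, rose in each genotype, with log2 fold changes of 3.08 in control, 3.77 under the CARM1 knockout label and 2.98 after XBP1 knockdown. XBP1 mRNA stood at 43.2 to 51.1 CPM in control and at 24.1 to 26.5 CPM after knockdown with vehicle. The 6 libraries labelled CARM1 knockout stand apart from the other 12 in genes that mark a cell line. They held 465 to 840 reads of PAX8, a Müllerian lineage factor, where the others held 0 to 2, and 3576 to 5166 reads of the keratin KRT7, where the others held 0 to 13. KRT18 was 12965 to 18887 reads against 1435 to 5479, and EPCAM 157 to 266 against 22 to 52. KRT19 went the other way, with 0 reads in these libraries and 0 to 44 in the others, so that, of the 7 ovarian cancer markers tested against control with vehicle, 6 were called higher and 1, KRT19, lower. The correlation of log2 CPM over genes was 0.986 to 0.989 within groups and 0.730 to 0.775 between these libraries and those of the other genotypes. Whatever else separates these libraries cannot be told apart from the knockout, and every value below for the CARM1 knockout label carries this limit. Of the 8 fixed markers of ovarian cancer cells MUC16 had 0 reads in every library, and the markers of leukocytes, endothelium and fibroblasts that were matched had at most 20 reads.

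Promoter windows, from 250 bases before to 50 bases after the start site, were found in RefSeq (GRCh38.p14) for 26 of the 31 genes. The 4 windows shown are those of PSMA5 and PSMD14, whose mRNAs rose most with tunicamycin in control cells, and of PSMA3 and PSMB2, which differed with PSMD14 in their response after XBP1 knockdown. Capitals mark 3 motifs, searched on both strands and allowed to overlap: TGANNNNGC, the core of the antioxidant response element to which NRF1 with a small MAF protein is known to bind, CCAAT, and ACGTCA, a core of the elements bound by ATF6 and XBP1. The coordinates are those of an exact match of each window to GRCh37, on the strand of the gene.

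The windows read 5′ to 3′ as follows.
PSMA5 (chr1:109969021-109969320, minus strand): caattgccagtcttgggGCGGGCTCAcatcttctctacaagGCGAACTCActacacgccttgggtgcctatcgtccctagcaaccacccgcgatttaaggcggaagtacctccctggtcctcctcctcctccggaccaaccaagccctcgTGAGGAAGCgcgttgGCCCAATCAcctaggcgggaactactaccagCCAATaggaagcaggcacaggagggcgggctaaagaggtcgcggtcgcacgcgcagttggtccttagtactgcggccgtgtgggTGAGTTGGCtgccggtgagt
PSMD14 (chr2:162164686-162164985, plus strand): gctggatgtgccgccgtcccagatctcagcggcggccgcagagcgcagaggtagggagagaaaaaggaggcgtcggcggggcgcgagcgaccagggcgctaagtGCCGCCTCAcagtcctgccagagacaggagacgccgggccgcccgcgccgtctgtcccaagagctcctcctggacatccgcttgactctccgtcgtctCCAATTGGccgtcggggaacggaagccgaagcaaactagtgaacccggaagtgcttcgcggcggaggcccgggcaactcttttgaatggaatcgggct
PSMA3 (chr14:58711311-58711610, plus strand): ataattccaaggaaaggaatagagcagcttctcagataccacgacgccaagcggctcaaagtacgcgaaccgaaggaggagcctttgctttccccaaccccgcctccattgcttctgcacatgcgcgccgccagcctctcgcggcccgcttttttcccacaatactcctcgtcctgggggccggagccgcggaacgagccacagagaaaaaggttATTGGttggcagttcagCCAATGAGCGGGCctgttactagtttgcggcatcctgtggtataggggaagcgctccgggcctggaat
PSMB2 (chr1:36107078-36107377, minus strand): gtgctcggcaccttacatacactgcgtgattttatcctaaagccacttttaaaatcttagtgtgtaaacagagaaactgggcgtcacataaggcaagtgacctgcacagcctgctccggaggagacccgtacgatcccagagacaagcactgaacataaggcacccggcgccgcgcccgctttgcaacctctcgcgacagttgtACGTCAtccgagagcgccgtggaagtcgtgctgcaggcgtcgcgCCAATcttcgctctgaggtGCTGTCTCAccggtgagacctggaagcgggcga
The PSMA5 window holds 5 matches to TGANNNNGC, the other windows 1 each, and each of the 4 windows holds CCAAT. Across the matched subunit genes TGANNNNGC was present in 17 of 26, or 65.4%, against 47.1% of all genes with a window. CCAAT was present in 15 of 26, or 57.7%, against 39.7%, and ACGTCA in PSMA4 and PSMB2, 7.69% against 9.64%. A match describes the letters of a window and does not locate a bound site.

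In control cells tunicamycin raised 15 of the 31 subunit genes and lowered 1, PSMA7 (edgeR's quasi-likelihood test with Benjamini-Hochberg adjustment at 0.05). These are 48.4% and 3.23% of the genes, where 22.0% of all 17317 genes tested were called higher and 19.9% lower. The changes were small: the median log2 fold change was 0.17 and the largest 0.71, while the median over all genes was 0.00. With library totals in place of TMM factors the median of the subunit genes was 0.08, that of the core turned from 0.07 to -0.03, and 18 rather than 24 genes lay above 0. That scaling also moved the median over all genes, from 0.00 to -0.08. The subunit genes have more reads than many of the genes behind these background shares, which bears on how small a change can be called.

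PSMA5, an alpha subunit of the core gate, changed most. It stood at 66.3, 70.9 and 78.5 CPM in the control libraries with vehicle and at 125, 117 and 109 CPM with tunicamycin, a log2 fold change of 0.71 ± 0.07 (SE, n = 3 libraries per group; adjusted p = 7.25e-07, edgeR). PSMD14 stood at 128, 130 and 147 CPM and at 191, 195 and 189 CPM, a log2 fold change of 0.52 ± 0.06 (SE; adjusted p = 3.54e-06, edgeR). For both genes every library with tunicamycin lay above every library with vehicle. This was so in 14 of the 31 subunit genes and in 25.1% of all genes tested. PSMC2, an ATPase of the base, went from 73.3, 67.9 and 81.0 CPM to 102, 90.6 and 101 CPM, a log2 fold change of 0.41 ± 0.07 (SE; adjusted p = 0.00026, edgeR). PSMC2 overlaps PMPCB on the same strand and DNAJC2 on the opposite strand, both with more reads than PSMC2 itself, and it is not stated whether the counting used strand. PSMA7, the alpha subunit that fell, stood at 566, 548 and 568 CPM with vehicle and at 510, 460 and 491 CPM with tunicamycin, a log2 fold change of -0.19 ± 0.05 (SE; adjusted p = 0.00761, edgeR).

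By part of the complex the counts were as follows, with no test between parts, beside 22.0% of all genes tested called higher and 19.9% lower. Of the alpha ring 4 of 7 genes rose, PSMA5, PSMA3, PSMA6 and PSMA1, the last with a log2 fold change of 0.22. Of the 6 ATPases 3 rose, PSMC2, PSMC4 and PSMC5, and of the 7 lid genes other than PSMD14 5 rose, between 0.19 for PSMD6 and 0.32 for PSMD13. Of the ubiquitin receptors PSMD4 rose by 0.30, while ADRM1 had a log2 fold change of 0.18 with an adjusted p of 0.0849 (edgeR). The 3 genes of the beta ring without catalytic sites, PSMB1, PSMB2 and PSMB4, passed the test in neither direction. The 3 catalytic genes did not pass it either, at -0.10 for PSMB5 (adjusted p = 0.172), -0.03 for PSMB6 (adjusted p = 0.699) and 0.05 for PSMB7 (adjusted p = 0.562, all edgeR). PSMB5 was 306 to 324 CPM with vehicle and 274 to 301 CPM with tunicamycin, with no overlap, whereas the ranges of PSMB6 and PSMB7 overlapped. All tunicamycin libraries lay below all vehicle libraries in 4 of the 31 subunit genes and in 24.7% of all genes tested. Of the 16 calls, 12 held under each of the 12 alternative analyses, and PSMD6 passed in 3 of 12, PSMD2 in 7, PSMA1 in 9 and PSMD12 in 11. With library totals in place of TMM factors, 11 genes rose and 5 fell.

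**Figure D1:**
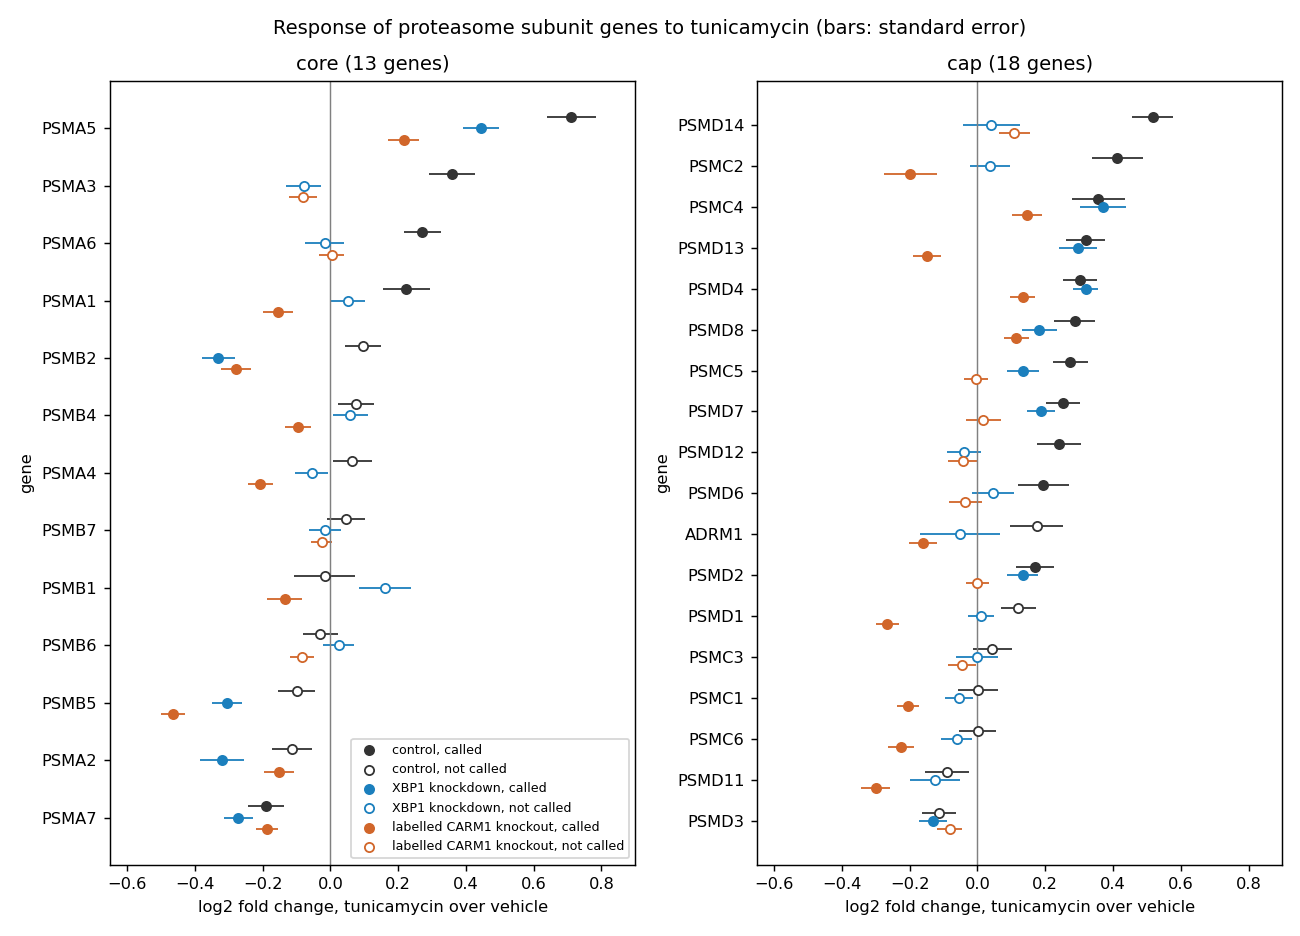
Log2 fold change of tunicamycin over vehicle for each subunit gene in each genotype (points, filled where the adjusted p was under 0.05; bars, standard error; 3 libraries per group), ordered by the control response. In control cells PSMA5 at 0.71 and PSMD14 at 0.52 lie farthest to the right, and PSMB5 lies farthest to the left in the libraries labelled CARM1 knockout, at -0.46.

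With XBP1 knockdown, tunicamycin raised 8 of the 31 subunit genes and lowered 5, 25.8% and 16.1% beside 19.2% and 19.0% of all genes tested, and the median log2 fold change was 0.01. PSMA5 rose again, from 83.7, 85.6 and 88.4 CPM to 122, 116 and 115 CPM, a log2 fold change of 0.44 ± 0.05 (SE; adjusted p = 6.14e-06, edgeR). PSMC4 rose by 0.37 ± 0.07 (adjusted p = 0.00041) and PSMD4 by 0.32 ± 0.04 (adjusted p = 5.39e-06, edgeR), the same order of size as their 0.36 and 0.30 in control cells. PSMB2, a beta subunit, fell by 0.33 ± 0.05 (adjusted p = 4.74e-05), PSMA2 by 0.32 ± 0.07 (adjusted p = 0.00104) and PSMB5 by 0.30 ± 0.05 (adjusted p = 5.72e-05, all SE and edgeR). PSMB6 and PSMB7 were at 0.02 (adjusted p = 0.743) and -0.02 (adjusted p = 0.837, edgeR). PSMD14 had a log2 fold change of 0.04 ± 0.08 (adjusted p = 0.753, edgeR), from 151, 161 and 137 CPM to 180, 142 and 142 CPM, the libraries of the 2 treatments overlapping and replicate 1 with tunicamycin lying above the rest. Of the 13 calls 9 held under each of 12 alternatives. With library totals in place of TMM factors 5 genes rose and 5 fell, beside 16.8% and 22.2% of all genes tested.

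The difference of the response between XBP1 knockdown and control cells was tested as an interaction term over the 4 groups. It was below 0 in 27 of the 31 genes, with a median of -0.10, and was called in 3, PSMD14, PSMA3 and PSMB2, or 9.68% beside 1.67% of all genes tested. Across 18 alternatives 22 to 28 terms were below 0, and the median was -0.06 with library totals alone or without the filter on low counts. Over the genes that pass the filter the median was 0.03 in each of these 2 settings. The term was -0.47 ± 0.11 for PSMD14 (adjusted p = 0.0317), -0.43 ± 0.09 for PSMA3 (adjusted p = 0.00993) and -0.42 ± 0.07 for PSMB2 (adjusted p = 0.00141, SE and edgeR). PSMA3, an alpha subunit, stood at 125, 121 and 141 CPM and then 176, 159 and 158 CPM in control cells, and at 139, 149 and 142 CPM and then 143, 135 and 131 CPM after knockdown. PSMB2 stood at 176, 176 and 187 CPM and then 195, 186 and 190 CPM in control cells, and at 194, 182 and 180 CPM and then 148, 150 and 147 CPM after knockdown. In PSMA3 the 2 control groups do not overlap and the 2 knockdown groups do, and in PSMB2 the knockdown libraries with tunicamycin lie below all others of these 4 groups. The terms of PSMA3 and PSMB2 passed in each of 18 alternatives and that of PSMD14 in 7 of 18. The PSMD14 call was lost with a replicate block (adjusted p = 0.0591, edgeR) and with library totals alone (adjusted p = 0.0605, edgeR). It was also lost without replicates 1 or 2 of the vehicle groups, without any 1 of the control libraries with tunicamycin, and without knockdown replicate 2 or 3 with tunicamycin. The count rose to 5 without control replicate 3 of the vehicle group or knockdown replicate 1 of the tunicamycin group, and DESeq2 also called 5. Of all genes tested 2.06%, 1.92% and 2.08% were called lower in these fits. PSMB5, PSMB6 and PSMB7 had terms of -0.20 (adjusted p = 0.174), 0.06 (adjusted p = 0.771) and -0.06 (adjusted p = 0.833, edgeR). None of the genes was called higher by edgeR or by DESeq2, and 0 had a positive term with an unadjusted p under 0.05. Few of all genes tested were called higher either, 0.364% by edgeR and 0.601% by DESeq2. PSMA3 overlaps the antisense RNA PSMA3-AS1, whose median count was 20.8% of its own.

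In the libraries labelled CARM1 knockout, tunicamycin lowered 15 of the 31 subunit genes and raised 4, 48.4% and 12.9% beside 18.8% and 20.6% of all genes tested, with a median log2 fold change of -0.08. PSMB5, the subunit with chymotrypsin-like activity, fell most, from 300, 308 and 302 CPM to 214, 213 and 216 CPM, a log2 fold change of -0.46 ± 0.03 (SE; adjusted p = 3.63e-10, edgeR). PSMD11, a lid subunit, fell by 0.30 ± 0.04 (adjusted p = 6.19e-06) and PSMB2 by 0.28 ± 0.05 (adjusted p = 3.2e-05, SE and edgeR). In these 3 genes no library with tunicamycin reached the lowest library with vehicle, as in 19 of the 31 subunit genes and 26.1% of all genes tested. The genes that rose were PSMA5 (0.22 ± 0.05, adjusted p = 0.000606), PSMC4 (0.15 ± 0.04, adjusted p = 0.00908), PSMD4 (0.13 ± 0.04, adjusted p = 0.00504) and PSMD8 (0.11, edgeR). PSMB6 and PSMB7 were at -0.08 (adjusted p = 0.0656) and -0.03 (adjusted p = 0.555), and PSMD14 at 0.11 (adjusted p = 0.0683, edgeR). With library totals in place of TMM factors 1 gene rose and 19 fell, beside 16.6% and 23.4% of all genes tested. With all libraries in one fit 1 rose and 15 fell, beside 15.8% and 18.3%. PSMB4 passed in 4 of 12 alternatives, PSMB1 in 6, PSMC2 in 7, and PSMC4 and PSMD8 in 9 each.

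The interaction term of this genotype label with tunicamycin was below 0 in 30 of the 31 genes, with a median of -0.25 beside -0.01 over all genes. It was called lower in 20, 64.5% beside 12.4% of all genes tested. None was called higher by edgeR or by DESeq2, beside 10.5% and 10.3% of all genes tested, with 0 positive terms at an unadjusted p under 0.05. The 20 genes were 8 of the core and 12 of the cap. The largest terms were those of PSMC2 (-0.63 ± 0.12, adjusted p = 0.000464), PSMA5 (-0.51 ± 0.09, adjusted p = 0.00028) and PSMD13 (-0.49 ± 0.07, adjusted p = 2.2e-05, SE and edgeR). PSMD13, a lid subunit, went from 131, 121 and 125 CPM to 151, 160 and 156 CPM in control cells, and from 188, 200 and 197 CPM to 175, 174 and 166 CPM in the libraries labelled CARM1 knockout. The ranges of the 2 treatments did not overlap in either genotype, and they moved in opposite directions. PSMD14 had a term of -0.43 ± 0.08 (adjusted p = 0.000469) and PSMB5 one of -0.38 ± 0.06 (adjusted p = 0.000122), while PSMB6 and PSMB7 were at -0.07 (adjusted p = 0.423) and -0.09 (adjusted p = 0.347, SE and edgeR). Of the 20 calls 10 held under each of 18 alternatives, while PSMD2 passed in 3, PSMB4 in 4, PSMD4 in 6, PSMC1 in 8 and PSMD7 in 10. The count fell to 10 without control replicate 1 of the vehicle group and to 11 without control replicate 3 of the tunicamycin group. Of all genes tested 8.81% and 8.47% were called lower in these 2 fits. Across the 18 alternatives 26 to 31 of the 31 terms were below 0.

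Both interaction terms and the control response use the same 6 control libraries, so they are set side by side here and not compared with each other. The 15 genes that rose in control cells had a median response of 0.29 there, 0.13 after XBP1 knockdown and 0.00 under the CARM1 knockout label. These 15 were picked by their control values, which alone favours a lower value elsewhere, and no test is drawn from this. PSMA5, PSMC4, PSMD4 and PSMD8 rose in all 3 genotypes and PSMA7 fell in all 3. Within single genotypes 19.2% to 22.0% of all genes tested were called higher and 18.8% to 19.9% lower. The share of all genes called the same way in all 3 is not given here, so nothing is read from these counts. PSMB2, PSMB5 and PSMA2 fell in both modified genotypes and passed in neither direction in control cells. Such a pattern of calls is not by itself a difference of response. PSMA2 was at -0.11 in control cells. Its interaction terms, -0.06 under the CARM1 knockout label and -0.20 after XBP1 knockdown, were not called. The term of PSMB5 after knockdown was not called either. The share of all genes with this pattern of calls is not given here. The study's own lists of genes induced by tunicamycin and reduced in the modified cells hold PSMA3, PSMA5, PSMD12 and PSMD14, and its list of targets lowered without tunicamycin holds PSMB5 and PSMD3. Those lists were chosen in part on these libraries, together with chromatin binding that is not analysed here, so the direction of these genes in these libraries is not independent evidence. With vehicle PSMB5 was at 0.15 after XBP1 knockdown and -0.09 under the CARM1 knockout label, neither called, and PSMD3 was at -0.04, not called, and -0.21, called lower.

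**Figure D2:**
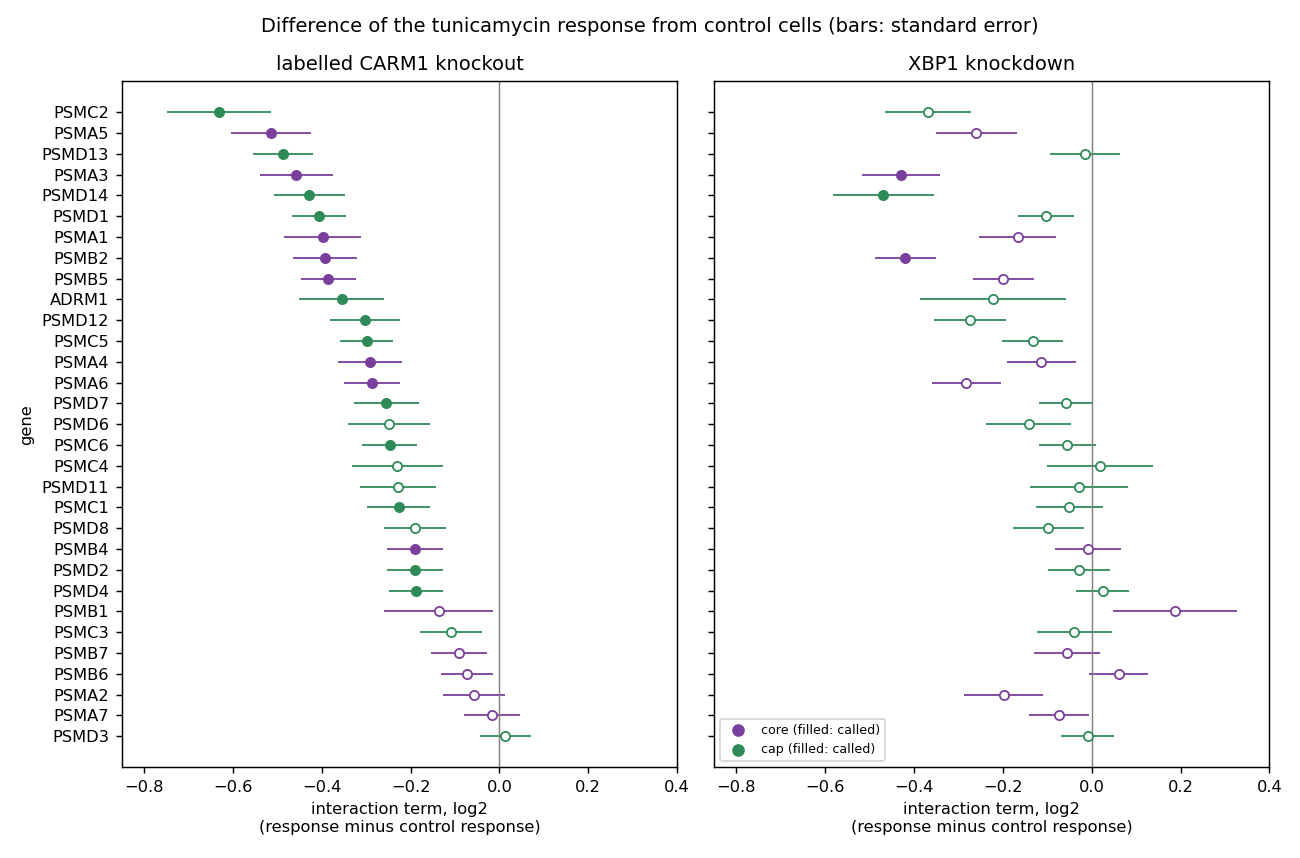
Interaction term of each subunit gene, the log2 response to tunicamycin in the labelled CARM1 knockout (left) or XBP1 knockdown (right) minus that in control cells (points, filled where called; bars, standard error). On the left 30 of 31 terms lie below 0 and 20 are filled; on the right 27 lie below 0 and PSMD14, PSMA3 and PSMB2 are filled.

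**Figure D3:**
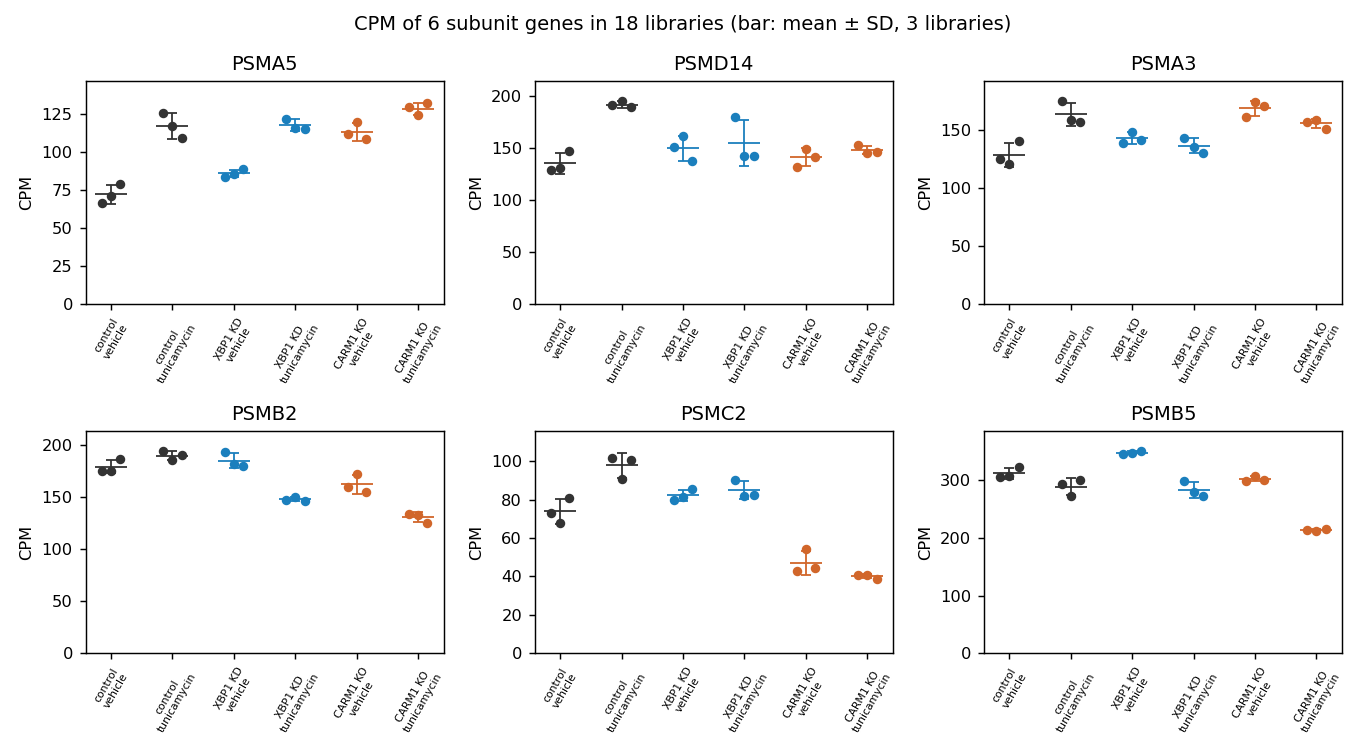
CPM of 6 subunit genes in each of the 18 libraries (points) with the mean and SD of 3 libraries, on axes that start at 0. PSMA5 is lowest in the control libraries with vehicle, PSMD14 highest in the control libraries with tunicamycin, and PSMB5 lowest in the tunicamycin libraries labelled CARM1 knockout, at 213 to 216 CPM.

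Between genotypes the subunit genes differed most under the CARM1 knockout label, and in both directions. With vehicle 14 of 31 were higher than in control cells and 9 lower, 45.2% and 29.0% beside 37.5% and 36.9% of all genes tested, shares near the background. With tunicamycin 10 were higher and 17 lower, 32.3% and 54.8% beside 38.4% and 36.8%. The median log2 fold change was 0.06 with vehicle and -0.15 with tunicamycin, and with library totals in place of TMM factors -0.11 and -0.32, so that its direction with vehicle turned. That scaling moves the median of all genes to -0.200 with vehicle and to -0.181 with tunicamycin. The counts were then 11 higher and 16 lower with vehicle, beside 32.6% and 43.4% of all genes tested. With tunicamycin they were 8 higher and 19 lower, beside 33.6% and 42.9%.

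PSMB7, the subunit with trypsin-like activity, was highest: 311, 325 and 320 CPM in control cells and 795, 793 and 810 CPM under the CARM1 knockout label with vehicle, a log2 fold change of 1.28 ± 0.04 (SE; adjusted p = 1.57e-13, edgeR). ADRM1 followed at 1.06 ± 0.06 (adjusted p = 5.08e-10) and PSMA7 at 0.80 ± 0.04 (adjusted p = 1.03e-10, SE and edgeR). PSMD7, a lid subunit, was lowest, at 302, 300 and 288 CPM in control cells against 127, 126 and 122 CPM, a log2 fold change of -1.29 ± 0.05 (SE; adjusted p = 7.34e-13, edgeR). PSMD4 was at -0.75 ± 0.04 (adjusted p = 2.4e-10) and PSMC2 at -0.69 ± 0.09 (adjusted p = 3.93e-06, SE and edgeR). In PSMB7 and PSMD7 the libraries of the 2 genotypes lie far apart beside the spread within either group. PSMB6 was at 0.29 ± 0.04 (adjusted p = 2.84e-05), PSMB5 at -0.09 (adjusted p = 0.077) and PSMD14 at 0.01 (adjusted p = 0.839, edgeR). PSMA1, called higher at 0.16, turned to -0.0082 with library totals alone.

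With tunicamycin the same genes led. PSMB7 was at 1.24 ± 0.05 (adjusted p = 4.88e-12), PSMA7 at 0.83 ± 0.04 (adjusted p = 1.74e-10) and ADRM1 at 0.76 ± 0.06 (adjusted p = 2.88e-08, SE and edgeR). PSMD7 was at -1.50 ± 0.06 (adjusted p = 2.53e-12), PSMC2 at -1.28 ± 0.06 (adjusted p = 8.74e-11) and PSMD4 at -0.89 ± 0.04 (adjusted p = 7.16e-11, SE and edgeR). PSMB5 was lower by 0.43 on the log2 scale, at 274 to 301 CPM in control cells and 213 to 216 CPM under the knockout label (adjusted p = 6.76e-07, edgeR), and PSMD14 was at -0.37 ± 0.04 (adjusted p = 2.69e-06, SE and edgeR). PSMB6 was at 0.26 ± 0.04 (adjusted p = 3.37e-05, SE and edgeR). PSMA5 and PSMD13, called higher at 0.14 and 0.15, turned to -0.023 and -0.0182 with library totals alone.

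The subunit genes lie on many chromosomes, and their differences under the knockout label were set beside those of the genes around them, the nearest 10 tested genes on each side where the chromosome had that many. PSMC2 (chr7:102969017-103010793, GRCh37) had neighbours with a median log2 fold change of -1.54 with vehicle, 0 of 20 above 0, and was itself at -0.69. PSMD4 (chr1:151227185-151239955) and PSMB4 (chr1:151372036-151374413) lie close together and had neighbours at -0.98 and -0.95, beside -0.75 and -0.48 of their own. PSMD7 (chr16:74330712-74340186) was at -1.29 beside -0.92, and PSMA5 (chr1:109941664-109969070) at 0.61 beside 1.32. ADRM1 and PSMA7, which both lie on chromosome 20, were at 1.06 and 0.80 beside 0.33 and 0.43. Over the 31 genes the value of the gene and of its neighbours had the same sign in 22 with vehicle and in 23 with tunicamycin, and correlated with Pearson's r of 0.63 and Spearman's rho of 0.56 with vehicle. This is a description across genes that share the same libraries, and nearby genes share neighbours. Some genes went against their surroundings, among them PSMC3 (chr11:47440320-47448024) at 0.57 beside -0.72 and PSMD2 (chr3:184016986-184026838) at 0.42 beside -0.48.

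**Figure D4:**
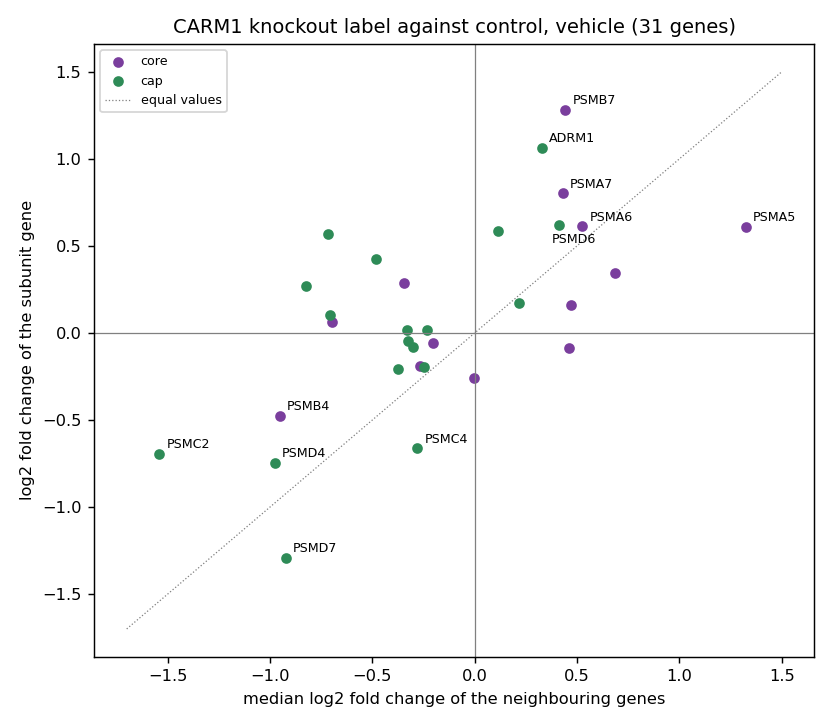
Log2 fold change of each subunit gene, CARM1 knockout label against control with vehicle (vertical axis), against the median of its tested neighbours (horizontal axis); the dotted line marks equal values. Points in the lower left, PSMC2, PSMD4, PSMB4 and PSMD7, and in the upper right, PSMA5, PSMA6 and PSMA7 among them, share the sign of their surroundings.

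XBP1 knockdown against control differed little in the subunit genes. With vehicle 1 of 31 was called, PSMA5, 3.23% beside 2.07% of all genes tested called higher, at 83.7 to 88.4 CPM against 66.3 to 78.5 CPM, a log2 fold change of 0.25 ± 0.07 (SE; adjusted p = 0.0479, edgeR). This call held in 6 of 12 alternatives and was lost without control replicate 1, control replicate 2 or any 1 of the 3 knockdown libraries, while 3 genes were called higher without control replicate 3. Of all genes tested 3.35% were called higher in the fit without control replicate 3. No gene was called lower by edgeR or DESeq2, beside 3.03% of all genes, and 2 were lower at an unadjusted p under 0.05. The catalytic genes were at 0.15 for PSMB5 (adjusted p = 0.0898), 0.09 for PSMB6 (adjusted p = 0.369) and 0.04 for PSMB7 (adjusted p = 0.745), and PSMD14 was at 0.14 (adjusted p = 0.311, edgeR).

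With tunicamycin 5 genes were lower after knockdown and 1 higher, 16.1% and 3.23% beside 8.55% and 6.99% of all genes tested, with a median of -0.06. PSMB2 was lower by 0.36 ± 0.05 (adjusted p = 9.7e-05), PSMD14 by 0.31 ± 0.08 (adjusted p = 0.0123) and PSMA3 by 0.26 ± 0.06 (adjusted p = 0.00576, SE and edgeR). The knockdown libraries of these 3 genes lie below every control library with tunicamycin, in PSMB2 by the widest margin, 147 to 150 CPM against 186 to 195 CPM. Such a lack of overlap was seen in 13 of the 31 subunit genes and in 15.8% of all genes tested. PSMC2 and PSMC3, the other genes called lower, passed in 6 of 12 alternatives each. PSMB6 was the gene called higher, at 0.18 ± 0.04 (adjusted p = 0.0136, SE and edgeR), and PSMB5 and PSMB7 were at -0.03 (adjusted p = 0.8) and 0.00 (adjusted p = 1, edgeR). DESeq2 called 3 lower, and leaving out single libraries gave 2 to 7 lower, with 2 without knockdown replicate 2 or 3 and 3 without control replicate 3. Of all genes tested DESeq2 called 7.14% lower, and the fits without 1 library 5.23% to 8.18%. PSMB6 lost its call without control replicate 3 or knockdown replicate 2, and 2 genes were higher without control replicate 2.

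Core and cap were compared within each library as the mean log2 CPM of the 13 core genes minus that of the 18 cap genes. In control cells the difference was 0.07, 0.10 and 0.13 with vehicle and 0.07, -0.01 and -0.02 with tunicamycin. After XBP1 knockdown it was 0.13, 0.16 and 0.23 with vehicle and 0.06, 0.07 and 0.03 with tunicamycin, and under the CARM1 knockout label 0.34, 0.36 and 0.32 and then 0.27, 0.28 and 0.29. The difference was smaller with tunicamycin in each genotype on average, with no overlap between treatments in the modified genotypes. In control cells the treatments overlapped, with replicate 1 at 0.0681 with tunicamycin and replicate 1 at 0.0676 with vehicle. It was largest under the CARM1 knockout label with either treatment. By median response to tunicamycin the core was at 0.07 and the cap at 0.22 in control cells, at -0.02 and 0.04 after knockdown and at -0.13 and -0.04 under the knockout label. In control cells 11 of 18 cap genes and 4 of 13 core genes rose, 61.1% and 30.8% beside 22.0% of all genes tested. By edgeR 0 cap genes and 1 core gene fell, beside 19.9% of all genes tested. Of the cap, 1 gene fell by DESeq2 and 1 at an unadjusted p under 0.05. Since this value sets levels of different genes against each other, and reads were taken from transcript ends, its size in 1 library has no meaning, and only its change between libraries is described.

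The share of all reads that fell on the 31 genes lay between 0.706% and 0.835% in the 18 libraries. It was lowest in the 3 tunicamycin libraries labelled CARM1 knockout, at 0.706% to 0.713%. This share uses library totals alone, and the order differed with TMM factors. The summed CPM of the 31 genes was then lowest in control with vehicle, at 7602 to 7653. Under the knockout label it was 7746 to 7854 with tunicamycin and highest of all groups with vehicle, at 8520 to 8715. Over the 6 group means the highest was 1.14 to 2.84 times the lowest, with a median of 1.48 over the genes, and without the libraries labelled CARM1 knockout 1.03 to 1.63 times with a median of 1.20. The highest group mean was that of the knockout label with vehicle in 12 genes and of control with tunicamycin in 9. The lowest was that of the knockout label with tunicamycin in 12 and of control with vehicle in 11. This order is a description of the group means, and the tests between groups are those given above.

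Other genes of the proteasome were called in both directions in control cells, where 22.0% of all genes tested were higher and 19.9% lower. Of 9 assembly factors 3 rose with tunicamycin and 3 fell, with a median log2 fold change of 0.16, near the 0.17 of the subunit genes. Among them PSMG1, a chaperone of the alpha ring, rose by 0.37, whereas POMP, the maturation factor of the core, fell from 303 to 321 CPM to 236 to 251 CPM, by 0.36 ± 0.05 (SE; adjusted p = 2.82e-05, edgeR). POMP also fell by 0.49 after XBP1 knockdown and by 0.33 under the CARM1 knockout label. Of 10 other factors that bind the proteasome 4 rose and 4 fell, with a median of -0.05. USP14, a deubiquitinase of the cap, rose from 181 to 193 CPM to 319 to 334 CPM in control cells, a log2 fold change of 0.82 ± 0.05 (SE; adjusted p = 2.73e-09, edgeR), and by 0.77 after XBP1 knockdown, but stood at 150 to 166 CPM and 155 to 163 CPM under the CARM1 knockout label. Its interaction term there was -0.80 ± 0.07 (SE; adjusted p = 3.34e-08, edgeR). ECPAS, an adaptor that holds core and cap together, rose in each genotype, by 0.68, 0.70 and 0.47. Of 5 activators and inhibitors PSMF1 rose by 0.29 and PSME3 fell by 0.16 in control cells.

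The inducible beta subunits, which replace the catalytic ones in the immunoproteasome, were weakly expressed in control cells. PSMB8 had 0 to 8 reads in each of the 12 control and knockdown libraries and 277 to 472 reads in each of the 6 libraries labelled CARM1 knockout. PSMB9 stood at 6.41 to 8.17 CPM in control cells with vehicle and at 9.50 to 10.7 CPM with tunicamycin (log2 fold change 0.49, adjusted p = 0.0111, edgeR), and PSMB10 fell by 0.35 (adjusted p = 0.0101, edgeR). PSMB9 was lower after XBP1 knockdown, by 0.68 with vehicle and 0.66 with tunicamycin. Of the 5 listed inducible and tissue subunits 3 had reads enough to be tested.

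Of 9 genes of the NRF1 pathway 6 rose and 2 fell with tunicamycin in control cells, beside 22.0% and 19.9% of all genes tested. NFE2L1, which encodes NRF1, stood at 58.0, 60.7 and 65.1 CPM with vehicle and at 198, 189 and 194 CPM with tunicamycin, a log2 fold change of 1.67 ± 0.06 (SE; adjusted p = 2.53e-12, edgeR). VCP, the segregase that draws proteins, NRF1 included, out of the ER membrane, stood at 307, 282 and 303 CPM and at 703, 688 and 747 CPM, a log2 fold change of 1.27 ± 0.06 (SE; adjusted p = 1.95e-11, edgeR). Both genes were far outside the spread of their vehicle libraries, and their changes were larger than that of any of the 31 subunit genes. NFE2L3, a relative of NFE2L1, fell by 1.39, from 2.34 to 4.05 CPM to 0.76 to 1.91 CPM. DDI2, the protease that cleaves NRF1, stood at 141 to 152 CPM with vehicle and 95.0 to 106 CPM with tunicamycin, a log2 fold change of -0.50, and was at 34.0 to 41.3 CPM in every library labelled CARM1 knockout.

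Of the 9 NRF1 pathway genes 7 rose and 0 fell with tunicamycin under the CARM1 knockout label, beside 20.6% and 18.8% of all genes tested. After XBP1 knockdown 6 rose and 3 fell, beside 19.2% and 19.0%. The responses of NFE2L1 and VCP were smaller under the CARM1 knockout label than in control cells. NFE2L1 went from 81.5, 84.9 and 88.3 CPM to 154, 152 and 153 CPM there, an interaction term of -0.80 ± 0.07 (SE; adjusted p = 9.01e-08, edgeR), and VCP from 206, 230 and 215 CPM to 277, 291 and 286 CPM, a term of -0.87 ± 0.07 (SE; adjusted p = 1.92e-08, edgeR). After XBP1 knockdown the term was -0.41 ± 0.07 for VCP (SE; adjusted p = 0.00102, edgeR) and -0.13 for NFE2L1, and MAFG, a partner of NRF1, was at -0.50 (adjusted p = 0.0265, edgeR). Of the 9 pathway genes 4 had a lower and 2 a higher response under the knockout label, beside 12.4% and 10.5% of all genes tested, and 3 had a lower response after XBP1 knockdown, beside 1.67%. Whether these changes bear on those of the subunit genes was not tested.

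UBB, a gene that encodes ubiquitin, had 5849 to 8051 reads in each control and knockdown library and 0 to 43 reads in each of the 6 libraries labelled CARM1 knockout. In control cells it stood at 533 to 548 CPM with vehicle and at 578 to 594 CPM with tunicamycin, a log2 fold change of 0.13 ± 0.05 (SE; adjusted p = 0.0427, edgeR). Whether the near absence of UBB bears on the subunit genes in the libraries labelled CARM1 knockout was not tested.

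**Figure D5:**
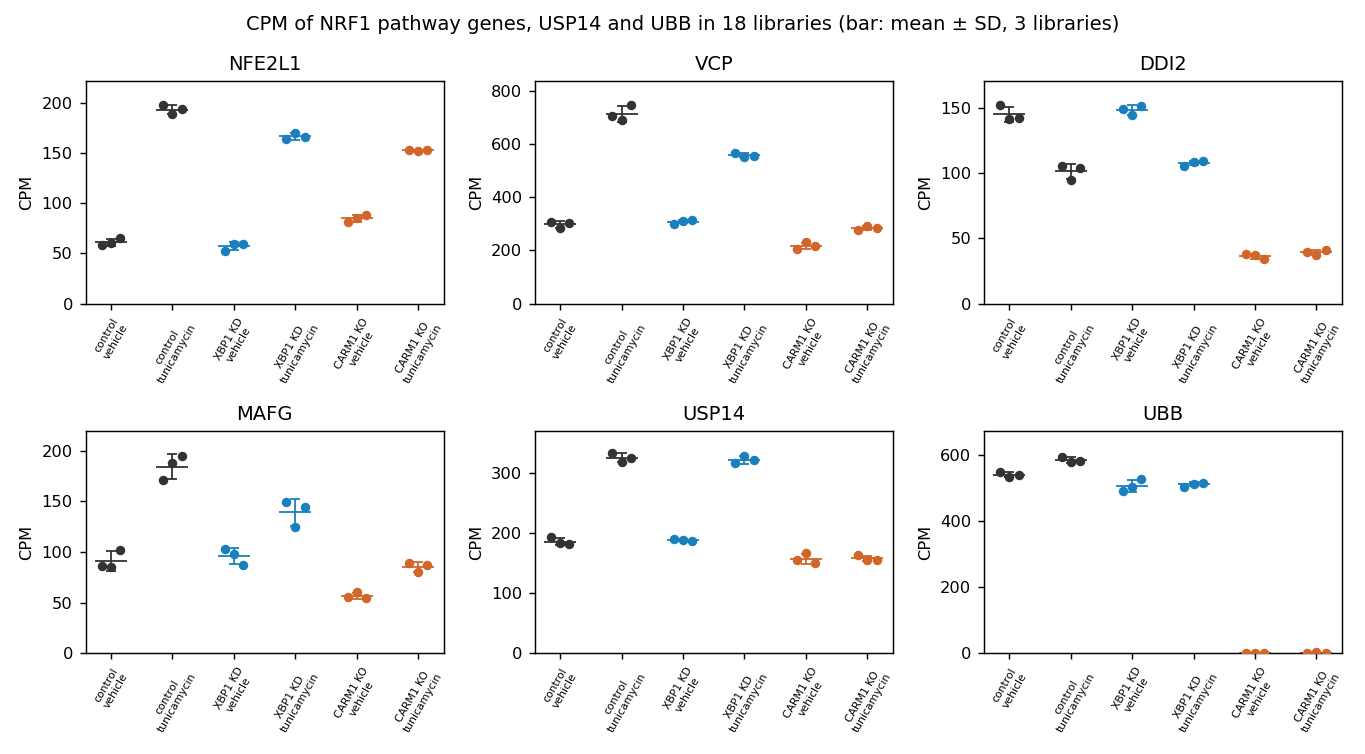
CPM of 4 genes of the NRF1 pathway, USP14 and UBB in each of the 18 libraries (points) with the mean and SD of 3 libraries, on axes that start at 0. NFE2L1 and VCP are higher with tunicamycin in every genotype, USP14 is higher with tunicamycin in control and knockdown libraries, and UBB lies near 0 in the 6 libraries labelled CARM1 knockout.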

How the data were processed

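RNA from A1847 cells of 6 groups was sequenced by the authors from the 3′ ends of mRNA as 75 nt single reads, aligned to hg19 with bowtie2 and counted per Ensembl gene with RSEM. The deposited values are expected counts, written as whole numbers without normalization, of 57736 genes in 18 libraries, with totals of 9367462 to 13917212. The RSEM version is given as 1.2.3 in the submitters' processing notes, whereas the study's methods name a different version. The Ensembl release and strand setting are not given in the sources used here. Symbols or GRCh37 positions were matched for 43484 genes.

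Groups were taken from the labels, and 0 columns were left unmapped. In edgeR 4.0.16 (R 4.3.3), filterByExpr with a minimum count of 10 over all libraries kept 17317 genes. TMM factors and quasi-likelihood tests were computed on the groups compared, and p-values were adjusted by Benjamini-Hochberg over all genes tested and called at 0.05. The SE is the log2 fold change divided by the root of F. CPM used TMM factors over all libraries, and log2 CPM a prior count of 2. The code was tested on simulated data. Some results of the other lists are not reported here. The members and gene lists were chosen with earlier results of these data known. For each comparison full statistics are given for the 3 largest rises and falls among called subunit genes and for PSMB5, PSMB6, PSMB7 and PSMD14, and in the other lists up to 3 called genes are named. DESeq2 1.42.0, other scalings, no filter, one fit of all libraries, a replicate block and leaving out each library were the alternatives. Replicate pairs differed by a chi-square per degree of freedom of 1.84 to 6.89, above counting error, so none is a copy of another.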

Additional observations from a re-analysis of the deposited data

Results flagged for a closer look

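The response to tunicamycin differed from that of control cells, by the interaction term of edgeR with an adjusted p under 0.05, in 20 subunit genes under the CARM1 knockout label. These are 64.5% of the subunit genes, beside 12.4% of all genes tested with a lower term. Of the 20 calls 10 held in all 18 alternatives. The log2 terms were -0.63 for PSMC2, -0.51 for PSMA5, -0.49 for PSMD13, -0.46 for PSMA3, -0.43 for PSMD14 and -0.41 for PSMD1. They were -0.40 for PSMA1, -0.39 for PSMB2, -0.38 for PSMB5, -0.36 for ADRM1, -0.30 for PSMD12 and -0.30 for PSMC5. Smaller terms were -0.29 for PSMA4, -0.29 for PSMA6, -0.25 for PSMD7, -0.25 for PSMC6, -0.23 for PSMC1, -0.19 for PSMB4, -0.19 for PSMD2 and -0.19 for PSMD4. After XBP1 knockdown the response differed in 3 genes, with terms of -0.47 for PSMD14, -0.43 for PSMA3 and -0.42 for PSMB2. These are 9.68% of the subunit genes, beside 1.67% of all genes tested with a lower term. Of these 3 calls 2 held in all 18 alternatives, and that of PSMD14 did not. The 2 sets of terms share the control libraries, and what else separates the libraries labelled CARM1 knockout cannot be told apart from the knockout.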

How the results depend on the processing

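Counts of subunit genes called moved as follows, by more than 1.5 times unless stated. With library totals alone, genes higher with tunicamycin numbered 1 in place of 4 under the CARM1 knockout label and 5 in place of 8 after XBP1 knockdown, genes lower in control cells 5 in place of 1, genes lower under the knockout label with vehicle 16 in place of 9, and genes higher after knockdown with vehicle 0 in place of 1. With all libraries in one fit the corresponding counts were 1 higher under the knockout label, 3 lower in control cells and 2 higher after knockdown with vehicle. DESeq2 gave 2 lower in control cells, 3 lower after knockdown with tunicamycin in place of 5, and 5 interaction terms after knockdown in place of 3. Without the filter 2 genes were higher after knockdown with tunicamycin in place of 1, and, a smaller move, 14 interaction terms were called under the knockout label in place of 20. A replicate block gave 2 genes higher after knockdown with tunicamycin. With smaller moves it gave 2 interaction terms after knockdown in place of 3, losing that of PSMD14, and 18 under the knockout label. Over all comparisons the block took 8 calls of single genes away and added 2. Same-numbered libraries did not deviate together (correlations of -0.05 to 0.05), so no effect shared by replicate number was visible. Whether the numbers pair the libraries is not stated, and these correlations cannot decide it.

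Leaving out 1 library at a time gave 10 to 19 interaction terms under the knockout label and 2 to 5 after knockdown, 2 to 7 genes lower and 0 to 2 higher after knockdown with tunicamycin, and 0 to 3 higher with vehicle. With library totals alone 7 genes reversed, counting only those called with TMM factors, with library totals or with both. Of these, PSMB1, PSMC5, PSMD14 and PSMD8 were not called with TMM factors in the comparison given. Other genes that changed sign without a call under either scaling are not listed. With vehicle under the knockout label PSMA1 was at -0.0082, PSMB1 at -0.11, PSMC5 at -0.16 and PSMD14 at -0.16, and with tunicamycin PSMA5 was at -0.023, PSMD8 at -0.14 and PSMD13 at -0.0182. That setting moves the median of all genes. Some other settings moved it too. For the interaction under the knockout label it was -0.01, and between 0.05 and 0.07 without any 1 of the control libraries. Without the filter it was 0.06 over the same genes. The cause of the moves in the counts was not tested.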
